A study of Mus musculus with 28 samples.

Results

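Voltage-gated sodium and calcium channels and the large family of potassium channels set the excitability of neurons: sodium channels carry the rising phase of the action potential, calcium channels couple voltage to transmitter release and to signalling inside the cell, and potassium channels repolarize the membrane and hold it at rest. Each voltage-gated channel has a pore-forming alpha subunit, and auxiliary subunits change its trafficking and its gating. The HCN channels carry a mixed cation current that opens on hyperpolarization, the inward rectifiers and the tandem-pore channels set the resting potential, and calcium- or sodium-activated potassium channels slow firing.

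The genes described here are the protein-coding genes of the deposited tables whose symbol begins with Scn, a digit and a or b, with Cacna, Cacnb or Cacng, with Kcn, or with Hcn and a digit. The rule gave 138 genes of the 45513 genes in the tables, of which 21578 are protein-coding. By subunit they comprised 10 sodium channel alpha and 4 beta subunits, 10 calcium channel alpha1, 4 alpha2delta and 4 beta subunits, 8 genes of the gamma and TARP family, 4 HCN channels, 40 voltage-gated potassium channel (Kv) alpha subunits with 12 Kv auxiliary subunits, 12 calcium- or sodium-activated potassium channel genes, 15 inward rectifiers, 14 tandem-pore channels and Kcnrg, a putative regulator of potassium channel assembly. Noncoding neighbours with similar symbols, such as Kcnq1ot1 and Kcnd3os, were left out. Channel genes were long: the median gene spanned 41.8 kb, against 16.9 kb for all protein-coding genes, and 45 of the 138 (32.6%) were longer than 100 kb, against 11.2% of protein-coding genes.

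Ribosome-protected fragments (footprints) and poly(A)-selected total mRNA were sequenced from mouse cells that carried human TDP-43, an RNA-binding protein that aggregates in amyotrophic lateral sclerosis, or its patient mutant A315T. MN1 cells, a clonal hybrid line of mouse spinal motor neurons and neuroblastoma, were transiently transfected with plasmids for GFP, for tagged human wild-type TDP-43 (hTDP-43) or for tagged hTDP-43 A315T, with 2 cultures of each. Primary cortical neurons were taken from E16 embryos and kept for 14 days in culture, and were hemizygous for a human wild-type TARDBP transgene (3 cultures) or an A315T transgene (3 cultures), both under the prion protein promoter, or were non-transgenic littermates (WT, 2 cultures, numbered 2 and 3). All neurons received cytosine arabinoside against dividing cells, only MN1 cells were given cycloheximide before lysis, and all cells kept their own Tardbp gene. Each culture gave 1 footprint and 1 total mRNA library, which makes 28 libraries.

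The footprint libraries held 332370 to 1219222 reads in genes in MN1 cells and 166064 to 2528820 in neurons, and the total mRNA libraries held 1328528 to 2988339 and 600385 to 6969578. Of the 138 channel genes, 5 to 25 reached 10 counts in an MN1 footprint library, 32 to 39 in an MN1 total library, 36 to 95 in a neuronal footprint library and 82 to 105 in a neuronal total library. Reads from Lars2, a mitochondrial tRNA synthetase gene, took 18.8% of the total mRNA library of WT culture 3 and 14.1% of that of hTDP-43 culture 3, against 3.09% to 7.49% in the other neuronal total libraries, and results are therefore also given without these cultures where it matters. Marker genes followed the labels in part. Summed over 6 pan-neuronal markers, total mRNA reached 4118 to 4813 CPM (counts scaled to library size) in neurons and 391.6 to 495 CPM in MN1 cells, whereas 4 markers of cycling cells summed to 2.58 to 7.01 CPM in neurons and 357 to 556 CPM in MN1 cells. Neuronal cultures also held glia: 6 astrocyte markers summed to 242 to 638 CPM, against 0 to 2.65 CPM in MN1 cells. In MN1 cells the motor neuron markers Isl1 (25.8 to 37.7 CPM) and Slc18a3 (14.9 to 31.2 CPM) were present, while Chat lay at 0 to 2.47 CPM and Mnx1 at 0.585 to 1.34 CPM.

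Paralogous channel genes share coding sequence, and this bears on short reads, so the sodium channel alpha subunits of brain are described first. Counting kept only uniquely mapped reads, and footprints are about as long as the 28-base windows used for this check. In 46 of the 138 genes no 28-base window of the transcripts recurred in a transcript of another gene, the median share of recurring windows was 0.209%, and 5 genes exceeded 5%. The highest was Kcnj14, with 37.7%. Scn2a followed the pattern of its cluster on chromosome 2, with 14.5% of windows recurring elsewhere, against 10.8% in Scn3a, 8.42% in Scn1a, 6.93% in Scn9a and 1.18% in Scn8a, which lies on chromosome 15. The coding sequences of the cluster members were identical over long stretches, up to 188 bases between Scn1a and Scn2a and 182 bases between Scn3a and Scn9a, and 211 windows of 30 bases occurred in all of Scn1a, Scn2a, Scn3a and Scn9a. A footprint from such a window cannot be assigned to one gene and was not counted, so the levels of Scn1a, Scn2a, Scn3a and Scn9a rest on the remaining windows.

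Levels were compared between genes as RPKM, reads scaled to library size and to exon length, averaged over the 3 genotypes of a cell type. In neurons 101 of the 138 genes exceeded 1 RPKM in total mRNA and 56 exceeded 10 RPKM, whereas in MN1 cells 36 exceeded 1 RPKM and 8 exceeded 10 RPKM. In footprints 94 and 45 genes passed these levels in neurons, and 29 and 4 in MN1 cells. Counts were 0 in every library for 9 genes in MN1 total mRNA and for 3 in neuronal total mRNA. Among the highest in neurons were Kcnj4, a strong inward rectifier (114 RPKM), the TARP genes Cacng7 (93.2) and Cacng8 (92.9), and Hcn2 (92.7). MN1 cells were led by Hcn2 (55.0 RPKM), by Kcnh2, the ERG-type potassium channel (37.8), by the calcium channel beta subunit Cacnb3 (33.5), by Cacng7 (21.2) and by the tandem-pore acid-sensitive channel Kcnk3 (19.5). In neuronal footprints the order changed: Cacng8 came first (98.1 RPKM), then Kcnj4 (91.0), Kcnk9 (72.1) and Cacna2d3 (47.4), an alpha2delta subunit that was 30th of 138 in total mRNA. Channel reads were more concentrated in MN1 cells, where the leading 5 genes held 43.3% to 47.7% of all channel reads of a total mRNA library, than in neurons, where the leading 5 held 18.9% to 23.2%. Across the genes tested, ranks of total mRNA RPKM in neurons and MN1 cells had a Spearman rho of 0.410 (100 genes, all from the same 14 total mRNA libraries), and ranks of footprint RPKM one of 0.262 (83 genes). These are descriptions across genes, which are not independent replicates.

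**Figure D1:**
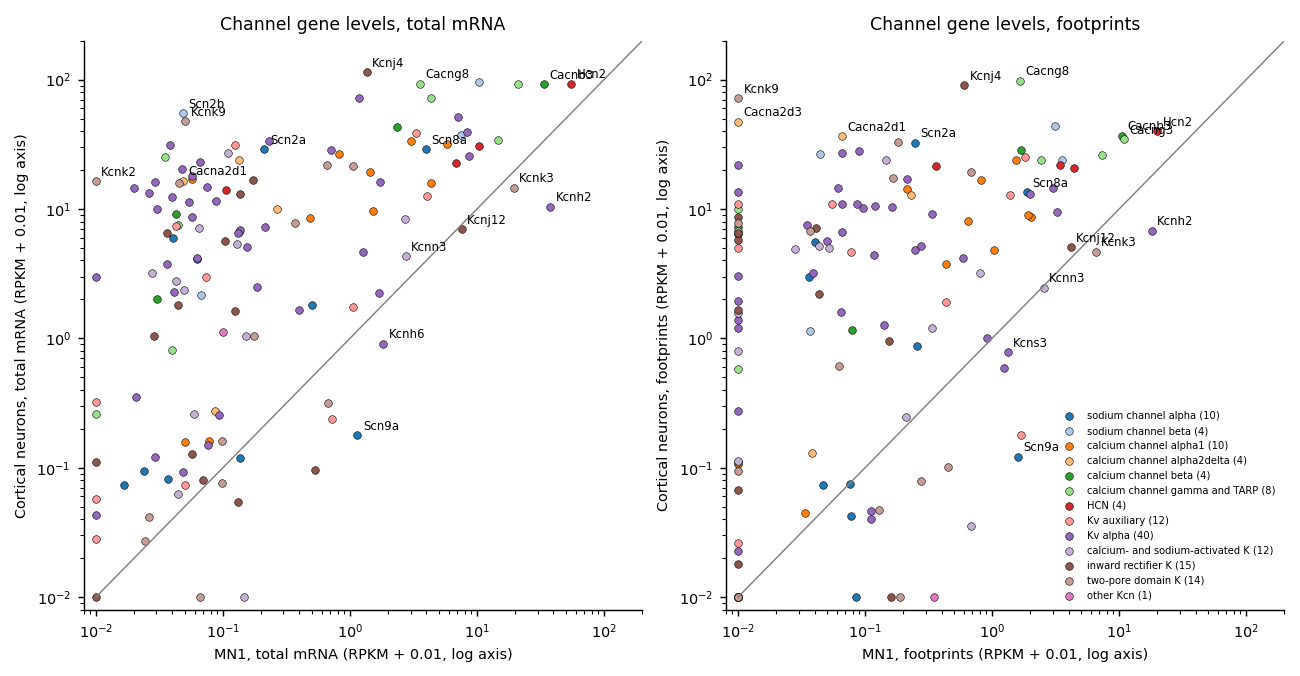
Mean RPKM of each channel gene in MN1 cells (horizontal axis) against primary cortical neurons (vertical axis), both on log axes, for total mRNA and for footprints, with 1 point per gene coloured by subunit class. Both axes show RPKM plus a pseudocount of 0.01. Most points lie above the diagonal of equal level, and Scn9a, Kcnh2 and Kcnk3 lie below it in both panels.

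Neurons and MN1 cells were compared first, over all 3 genotypes, to see which channel genes each model expresses. Channel mRNAs were on the whole far more abundant in cortical neurons. Of the 100 channel genes that passed the low-count filter in total mRNA, 94 were higher in neurons, where 42.6% of all genes tested were called higher, and 4 were lower, where 38.4% were (81.0% in either direction). The lower genes were Scn9a, Kcnh2, Kcnh6 and Kcnk3. For Kcnj12 (log2 fold change −0.20, SE 0.16) and Kcnh4 (0.30, SE 0.28) the difference did not pass the test. The median log2 fold change of the channel genes tested was 5.77 (5.71 with the genes at 0 in MN1 cells set to their lower bound), against 0.09 over all genes tested. The low-count filter admits a gene that is high in either cell type, so these are not all members, and the other 38 genes were too low to test. In footprints 83 genes were tested, 78 were higher (background 42.7%) and 3 lower (39.9%; either direction 82.6%), with a median of 6.33, or 5.86 with 14 genes at 0 set to their bound, against 0.05 over all genes. Cell type here comes with tissue of origin, with embryonic culture against a cell line and with cycloheximide, and these cannot be told apart. In bulk libraries fewer cells of a type and less RNA per cell cannot be told apart either. The labels date most cultures differently within a group and do not tie them to litters or animals, so p-values measure the spread between these cultures.

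**Figure D2:**
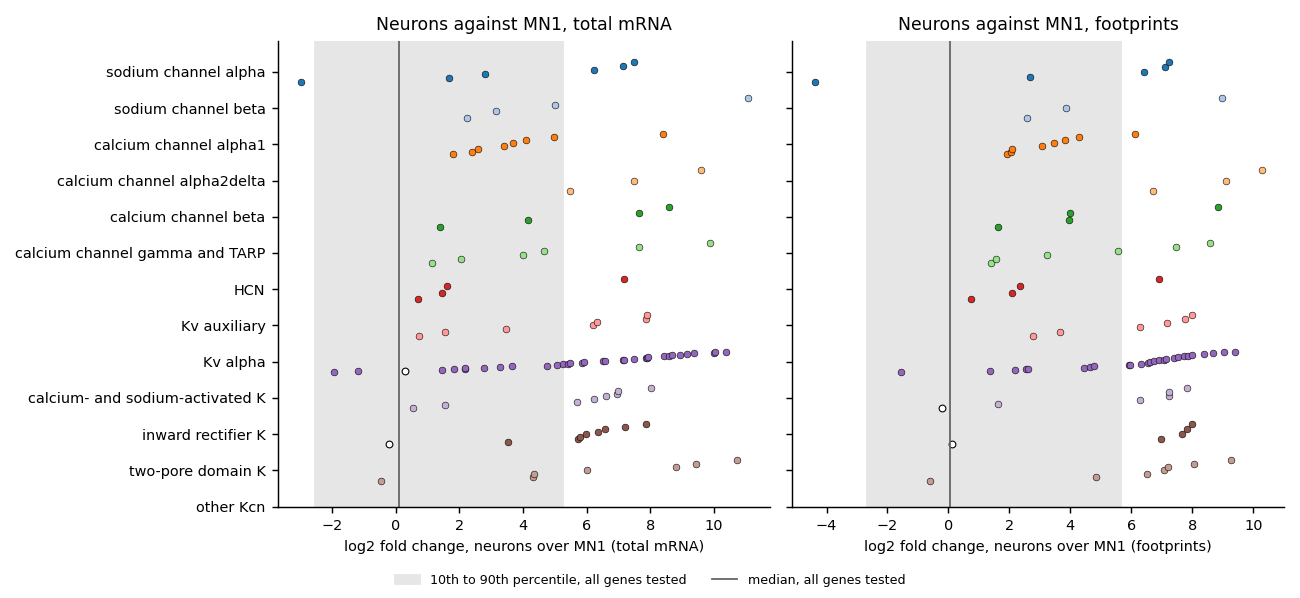
Log2 fold change of neurons against MN1 cells for each channel gene tested, in total mRNA and in footprints, grouped by subunit class, with open points for genes not called, a line at the median of all genes tested and grey from their 10th to 90th percentile. Nearly all points lie to the side of higher levels in neurons, and the HCN class has the smallest class median (1.54 in total mRNA).

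Among the sodium channel alpha subunits, 6 of 10 were tested in total mRNA and 5 of these were higher in neurons. Scn2a, a main axonal channel of young cortical neurons, lay at 15.8, 26.7 and 49.8 RPKM (lowest, median, highest of 8 libraries) in neurons and at 0.0481, 0.175 and 0.381 RPKM in the 6 MN1 libraries. The groups did not overlap, and the fold change was 142 (log2 7.15, SE 0.40, edgeR adjusted p = 3.6e-10). Scn2a footprints were steadier in neurons, from 29.2 to 39.2 RPKM. Scn8a, the channel of mature axon initial segments and nodes, was the alpha subunit that MN1 cells expressed most: it lay at 3.32 to 4.57 RPKM in MN1 total mRNA and at 21.3 to 43.3 RPKM in neurons, a 6.92-fold difference (edgeR adjusted p = 1.9e-09). Scn3a, known as the embryonic brain channel, and Scn1a, known from inhibitory interneurons, reached 3.18 to 11.2 and 1.79 to 6.92 RPKM in neurons and stayed under 0.081 RPKM in every MN1 total mRNA library.

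Scn9a ran the other way. This channel, known from sensory and sympathetic neurons, lay at 0.732, 1.07 and 1.65 RPKM in MN1 total mRNA and at 0, 0.0898 and 0.663 RPKM in neurons. The libraries of the cell types did not overlap, and Scn9a was 7.96-fold lower in neurons (log2 −2.99, SE 0.46, edgeR adjusted p = 2.5e-05). In footprints the log2 difference was −4.39 (SE 0.47). With only the GFP and WT cultures the total mRNA value was −1.99 and no longer passed the test (edgeR adjusted p = 0.14). Scn4a, Scn7a, Scn10a and Scn11a, the channels of muscle, glia and sensory ganglia, had 1 to 18 counts summed over all total mRNA libraries of a cell type and were not tested.

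All 4 sodium channel beta subunits, adhesion molecules that modulate the alpha subunits, were higher in neurons. Scn2b had one of the widest gaps among the members, with 3 counts over the 6 MN1 total libraries, 5696 over the 8 neuronal ones, a pooled ratio of 1165 (95% counting interval 398.4 to 5649.9), and 41.8, 57.5 and 62.4 RPKM in neurons. Scn3b, at 5.36 to 9.41 and 33.1 to 41.7 RPKM, differed 4.74-fold. Scn4b reached only 0.286 to 3.88 RPKM in neurons. For none of these 4 genes did neuronal and MN1 libraries overlap in total mRNA. The same comparison called 81.0% of all genes tested in either direction, so a gap between the cell types was common.

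The calcium channel alpha1 subunits were expressed in both cell types, and the 8 tested were each higher in neurons. MN1 cells expressed mostly T-type and N-type channels: Cacna1i lay at 4.84 to 6.82 RPKM, Cacna1h at 2.11 to 6.20 RPKM, and Cacna1b, the N-type channel of presynaptic terminals, at 2.33 to 3.76 RPKM. In neurons Cacna1b was 10.7-fold higher (25.4, 32.0 and 46.7 RPKM), Cacna1i 5.32-fold (25.6, 31.9 and 38.9 RPKM) and Cacna1h 3.49-fold (12.6, 15.3 and 21.3 RPKM). The smallest gaps of the class were thus among T-type channels, although Cacna1g, also T-type, was 12.7-fold higher. Cacna1a, the P/Q-type channel, rose from 0.679 to 1.17 RPKM in MN1 cells to 22.1 to 34.6 RPKM (31.3-fold). Cacna1e, the R-type channel, had the largest gap: 16 counts in all over the MN1 total libraries (0.0284 to 0.0740 RPKM) and 10.9 to 29.3 RPKM in neurons, 337-fold (log2 8.40, SE 0.34, edgeR adjusted p = 1.3e-11). The L-type genes Cacna1c and Cacna1d were lower in level in neurons, at 7.47 to 12.7 and 6.23 to 12.8 RPKM, and 5.94-fold and 16.9-fold above MN1 cells. Cacna1f and Cacna1s, the channels of retina and skeletal muscle, did not pass the filter.

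Alpha2delta subunits are extracellular proteins that bring calcium channels to the surface and bind gabapentinoids. Those tested in total mRNA, Cacna2d1, Cacna2d2 and Cacna2d3, had a median log2 fold change of 7.47, against 3.54 for the alpha1 pores tested. No alpha2delta gene exceeded 0.258 RPKM in MN1 total mRNA. They passed the low-count filter through neurons, and the size of their median rests on MN1 levels near the floor. Cacna2d1 had 6 counts over the MN1 total libraries and lay at 11.2, 16.1 and 24.4 RPKM in neurons. The fitted log2 fold change was 9.58 (SE 0.50) in total mRNA and 9.11 (SE 0.28) in footprints, which had 3 counts in MN1 cells against 3646 in neurons, a pooled ratio of 819 (95% counting interval 280 to 3974), and lay at 29.5 to 49.8 RPKM in neurons. Cacna2d3 had no MN1 footprint at all and 1449 in neurons, at least 326-fold more against a floor of 3 counts over the MN1 group. It lay at 38.9, 46.5 and 61.8 RPKM in neuronal footprints. Together the class took 0.025% to 0.404% of channel reads in MN1 total mRNA, 2.84% to 3.86% in neuronal total mRNA and 9.84% to 12.4% in neuronal footprints.

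Among the intracellular beta subunits, Cacnb3 was shared, at 23.3, 35.5 and 41.8 RPKM in MN1 cells and a median of 98.9 RPKM in neurons, where it reached 121 RPKM (2.63-fold, edgeR adjusted p = 2.1e-06). Cacnb1 differed 17.7-fold, and Cacnb4, with 4 counts over the MN1 total libraries, lay at 4.82 to 15.4 RPKM in neurons. Of the gamma and TARP genes, which include the AMPA receptor auxiliary subunits, Cacng7 was present in both (16.2 to 25.2 against 53.5 to 117 RPKM, 4.18-fold), Cacng4 had medians of 3.94 and 73.4 RPKM, and Cacng8 differed 25.1-fold. In footprints Cacng8 rose from 0.851 to 2.09 RPKM in MN1 cells to 67.4, 102 and 122 RPKM in neurons, 47.8-fold (edgeR adjusted p = 1.1e-15). Cacng3, named here after its values were seen, was among the 6 highest channel mRNAs of MN1 cells (12.9 to 16.7 RPKM) and was 2.19-fold higher in neurons. Cacng2, the stargazin gene, also seen first in its values, had 2 counts in MN1 total mRNA and 2986 in neurons.

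HCN channels had the smallest class median of the fold change. Hcn2 lay at 42.8, 55.9 and 64.2 RPKM in MN1 total mRNA and at 85.1, 93.8 and 101 RPKM in neurons. The libraries did not overlap, but the fold change was only 1.61 (log2 0.69, SE 0.11, edgeR adjusted p = 2.8e-05). Hcn3 differed 2.77-fold and Hcn4, the sinoatrial pacemaker channel, 3.06-fold. Hcn3 shares 17.1% of its exonic bases with Pklr, and reads in that overlap were not counted. As a share of channel reads, HCN genes made up 15.5% to 18.2% in MN1 total mRNA and 4.52% to 5.91% in neurons.

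**Figure D3:**
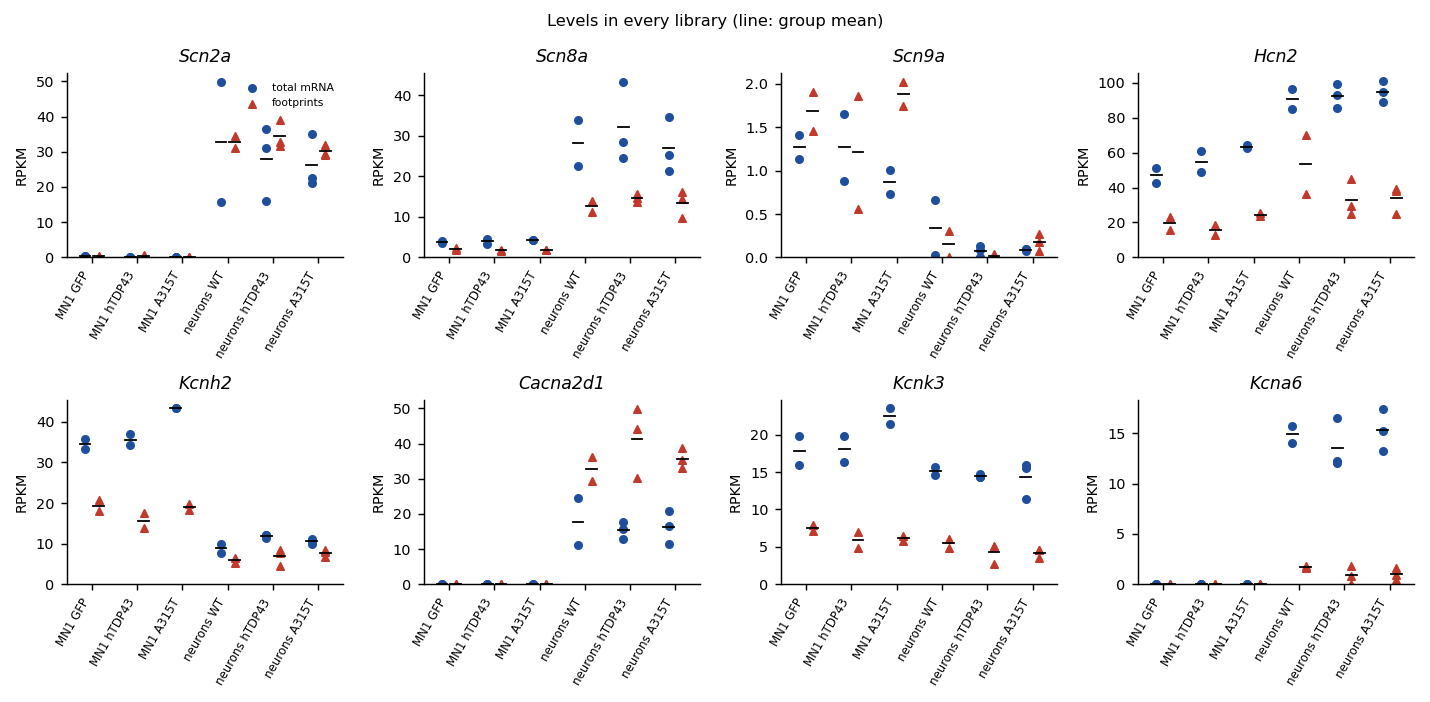
RPKM of Scn2a, Scn8a, Scn9a, Hcn2, Kcnh2, Cacna2d1, Kcnk3 and Kcna6 in every library, by cell type, genotype and library type, with 1 point per library and a line at each group mean. Scn9a and Kcnh2 sit higher in MN1 cells, Hcn2 lies within 42.8 to 101 RPKM in all total mRNA libraries, and Kcna6 has total mRNA but few footprints in neurons.

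Kv alpha subunits, the largest class, split into a broad group with few or no counts in MN1 cells and a short list that MN1 cells shared. Of 34 tested in total mRNA, 31 were higher in neurons and 2 lower. Kcnh2, which repolarizes cardiac and neuronal membranes, was the clearest exception: it lay at 33.2, 36.3 and 43.4 RPKM in MN1 cells and at 7.67, 10.9 and 12.1 RPKM in neurons. The groups did not overlap, and it was 3.80-fold lower in neurons (log2 −1.93, SE 0.10, edgeR adjusted p = 2.8e-10) and 2.91-fold lower in footprints. Its paralog Kcnh6 was 2.26-fold lower (edgeR adjusted p = 0.0012), a call lost with only GFP and WT cultures (log2 −0.64, edgeR adjusted p = 0.37). Another member of the family went the other way: Kcnh3, an ELK-type channel of forebrain, rose from 0.870 to 1.48 RPKM in MN1 cells to 51.7, 74.7 and 88.4 RPKM in neurons, 58.1-fold.

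Kcnq3, a subunit of the M channel, had 10 counts over the 6 MN1 total libraries and 5722 over the neuronal ones (9.48 to 27.8 RPKM), 382-fold. Of the Shaker-type genes, Kcna2 was present in MN1 cells (0.504 to 3.15 RPKM), whereas Kcna1 had 3 counts there, a pooled neuron to MN1 ratio of 753 (95% counting interval 257 to 3652). Kcna6 had 1 count in MN1 cells and 1979 in neurons, a pooled ratio of 1214 (95% counting interval 217.7 to 47977). Kcnf1, a silent subunit that modifies other Kv channels, had 2 counts in MN1 cells and a median of 31.7 RPKM in neurons. Kcnv1, another silent subunit, had no footprint in MN1 cells and 745 in neurons, at least 167-fold more.

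Of the Kv auxiliary genes, 7 were tested and all were higher in neurons. Kcnab2, the main Kv beta subunit of brain, differed 11.1-fold (medians of 3.46 and 39.6 RPKM). Kcnip3, a calcium-binding partner of Kv4-type channels, was the one member of its family well expressed in MN1 cells, at 3.77 to 4.27 RPKM, and was 2.95-fold higher in neurons. Kcnip2 had 6 counts in MN1 total mRNA and 20.6 to 39.5 RPKM in neurons. Kcnab3, seen first in its values, passed with edgeR adjusted p = 0.043 and missed with the cultures paired by number (edgeR adjusted p = 0.053). The Kcne genes reached at most 1.72 RPKM in any total mRNA library of either cell type.

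Calcium- and sodium-activated potassium channels followed the same division. Kcnma1, the BK channel, had 9 counts over the MN1 total libraries and lay at 15.3, 23.3 and 48.4 RPKM in neurons. The SK channels Kcnn1 and Kcnn3, which carry the medium afterhyperpolarization, were present in MN1 cells at 1.90 to 4.28 and 2.15 to 3.10 RPKM. Kcnn1 was 2.94-fold higher in neurons, and Kcnn3 1.45-fold in total mRNA (edgeR adjusted p = 0.024, lost with control cultures only), with no called difference in footprints (log2 −0.20, SE 0.20, edgeR adjusted p = 0.34). The sodium-activated genes Kcnt1 and Kcnt2 reached 6.04 to 8.12 and 1.76 to 4.98 RPKM in neurons, with 8 and 3 counts in MN1 cells. Kcnmb4, the neuronal BK beta subunit, had 1 count in MN1 cells and 1.70 to 5.29 RPKM in neurons.

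Inward rectifiers included both the most abundant neuronal channel mRNA and one that did not separate the cell types. Kcnj4 lay at 0.492, 1.43 and 2.47 RPKM in MN1 cells and at 76.9, 121 and 139 RPKM in neurons, 82.1-fold (log2 6.36, SE 0.25, edgeR adjusted p = 1.1e-11). Its relative Kcnj12 lay at 6.17 to 8.62 and at 4.62 to 8.36 RPKM, overlapping, with a log2 difference of −0.20 (SE 0.16, edgeR adjusted p = 0.27) in total mRNA and 0.11 (SE 0.31) in footprints. Kcnj9, a G-protein-gated channel, was 96.3-fold higher in neurons, and Kcnj11, the pore of the ATP-sensitive channel, had 2 counts in MN1 cells and 9.27 to 22.5 RPKM in neurons. Kcnj16, an inward rectifier that astrocytes express with Kcnj10, lay at 0.441 to 1.87 RPKM in neuronal cultures, in which the astrocyte markers given above were also present, and the part of glia in its level was not tested.

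Among tandem-pore channels, Kcnk3 was lower in neurons by a small margin. It lay at 15.9, 19.8 and 23.6 RPKM in MN1 cells and at 11.4, 14.6 and 15.99 RPKM in neurons, so the highest neuronal library lay just above the lowest MN1 library (log2 −0.48, SE 0.12, edgeR adjusted p = 0.002). In footprints the log2 difference was −0.61 (SE 0.19, edgeR adjusted p = 0.0056). Neither value passed with the GFP and WT cultures alone (log2 −0.23, edgeR adjusted p = 0.58, and −0.52, edgeR adjusted p = 0.19), and the footprint call was also lost when single MN1 cultures were left out. Its paralog Kcnk9 showed the opposite: 1 count in MN1 total mRNA and none in MN1 footprints, against 27.7 to 73.5 RPKM and 56.9 to 86.6 RPKM in neurons, at least 159-fold more in footprints. Kcnk2, the mechanosensitive channel TREK, had no count in MN1 total mRNA and 1815 in neurons, at least 371-fold more. Kcnk1 and Kcnk12 were 63.9-fold and 20.1-fold higher in neurons.

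A motif read by the neuronal gene repressor REST, which keeps many neuronal genes silent outside neurons, was looked for because so many channel genes separated the cell types. The motif, TTCAGCACCNNGGACAGCGC, was searched on both strands from 5 kb before each gene's start to its end, with at most 2 mismatches outside the NN. It was found in 20 of the 138 channel genes (14.5%), at 24 sites or 1.35 per Mb, and in 353 of 21488 protein-coding genes (1.64%), at 0.352 per Mb. Among genes of 50 to 400 kb the shares were 22.6% and 3.35%. Channel genes with a match had a median log2 fold change of 5.97 (19 tested) and those without one 5.74 (81 tested), whereas over all protein-coding genes the medians were 2.87 with a match (288 tested) and 0.05 without (12105 tested). Examples of sites in members described above read, 5′ to 3′ on the motif strand with bases that match the motif in capitals:
Scn2a (chr2:65619964-65619983, before the gene): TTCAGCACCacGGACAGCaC
Kcnk12 (chr17:87798584-87798603, before the gene): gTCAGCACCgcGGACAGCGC
Cacna1h (chr17:25400635-25400654, intron): TTCAGCACCacGGACAGCGa
Kcnab2 (chr4:152424540-152424559, intron): TTCAGCACCcaGGACAGCtC
Hcn2 (chr10:79718160-79718179, intron): TTCAGgACCacGGACAGCtC
Hcn3 (chr3:89159337-89159356, intron): TTCAGCACCacGGACAGCaa
These are only some of the 24 sites. Other members described above, such as Cacna1a, Cacna2d3, Cacng2, Cacng7, Hcn4, Kcnip2, Kcnma1 and Kcnt1, also held a site. The printed list therefore does not show how genes with a match divide between those low in MN1 cells and those expressed there. A match in these letters is a description and says nothing of binding.

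Footprints were then set against total mRNA of the same cultures, to ask how ribosome occupancy per mRNA varied among channel genes. Values are relative to the average gene, since each library type was scaled on its own. In neurons channel mRNAs tended to carry fewer footprints than the average mRNA: of 100 tested, 46 had a ratio below the average (27.3% of all genes did) and 12 above it (26.6%; either direction 54.0%), with a median log2 ratio of −0.53 against 0.00 over all genes. That fit left the libraries unpaired. With each footprint library paired to the total mRNA library of its culture, 65 were called, 15 of them above. In MN1 cells 35 were tested, 23 were below (30.2% of all genes) and 2 above (27.2%; either direction 57.4%), with a median of −0.92 against −0.05. Reads were counted over whole exons, while footprints lie in coding sequence, so a long untranslated part lowers the ratio. Channel genes had a median coding share of 41.9% of exon length, against 48.0% over protein-coding genes. Within bands of coding share the channel medians in neurons were −0.64 (under 25% coding, 23 genes), −0.48 (25% to 50%, 43 genes), −0.53 (50% to 75%, 24 genes) and 0.13 (75% and above, 10 genes), and those of all protein-coding genes were −0.26, 0.01, 0.19 and 0.26. In the same bands the MN1 channel medians were −0.97 (5 genes), −1.23 (15), −0.91 (11) and −0.84 (4). Those of all protein-coding genes there were −0.20, −0.07, 0.05 and 0.16. Over channel genes, ratio and coding share had a Spearman rho of 0.13 in MN1 cells and 0.16 in neurons. The part of coding share in the low channel ratios was not tested.

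Of the 4 alpha2delta subunits 3 were called above the average. Cacna2d1 lay at 11.2 to 24.4 RPKM in neuronal total mRNA and at 29.5 to 49.8 RPKM in footprints, a ratio 2.29-fold above the average gene (log2 1.20, SE 0.17, edgeR adjusted p = 1e-05). Cacna2d3 was 2.05-fold above (log2 1.03, SE 0.14) and Cacna2d2 1.37-fold (log2 0.45, SE 0.15), whereas Cacna2d4, named after its values were seen, lay at −2.53 (SE 1.13, edgeR adjusted p = 0.069), the second lowest value after Kcna6, on 59 total mRNA and 7 footprint counts. With each footprint library paired to the total mRNA library of its culture, Cacna2d4 was called below the average (edgeR adjusted p = 0.043). Others above the average included Kcnj16 (log2 1.02), the sodium-activated channel Kcnt2 (0.89), Kcnv1 (0.85), Kcnk9 (0.69) and Kcnk1 (0.62). Kcnip4 (0.71), Kcnab1 (0.71) and Kcnh5 (0.75) were also above it and are named after their values were seen. Ranks of the 2 measures still went together across genes: footprint and total RPKM had a Spearman rho of 0.878 over 100 genes in neurons, as a description across genes of shared cultures.

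**Figure D4:**
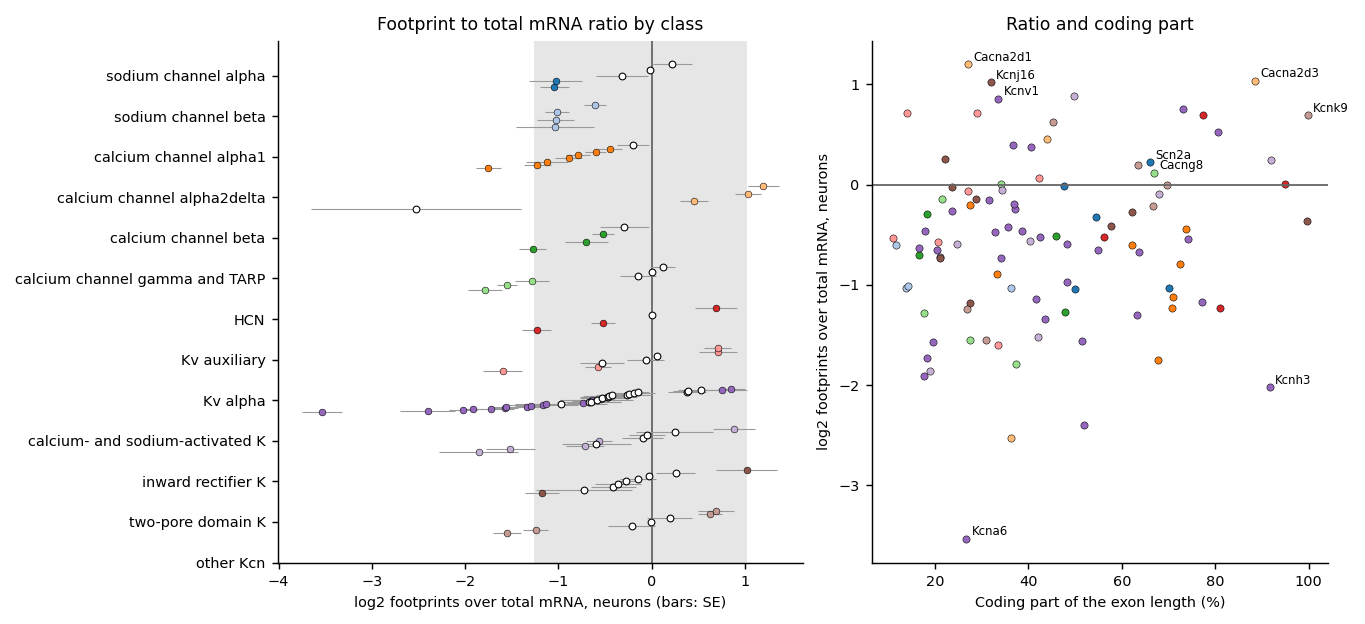
Log2 ratio of footprints to total mRNA in neurons for each channel gene tested, by subunit class with SE bars, open points for genes not called and grey for the 10th to 90th percentile of all genes, and the same ratio against the coding percentage of exon length. Of the 4 alpha2delta genes 3 lie above 0 with a call, all sodium channel beta subunits and 7 of 8 calcium channel alpha1 subunits lie below it with a call, and Kcna6 is lowest at −3.53.

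The lower end held Kcna6, whose total mRNA lay at 12.0 to 17.4 RPKM in neurons and whose footprints lay at 0, 1.29 and 1.86 RPKM, a ratio 11.6-fold below the average (log2 −3.53, SE 0.22, edgeR adjusted p = 4.1e-09). Annotated exons of Kcna6 overlap those of another gene over 39.6% of their bases, where reads were not counted, and the part of this overlap in the ratio was not tested. Kcnq3 lay at −1.73 and was called. Kcnh3 was at −2.02, Kcnip2 at −1.60 and the BK beta subunit Kcnmb4 at −1.86, the last with 31.5% exon overlap. All 4 sodium channel beta subunits were called below the average, from −0.61 for Scn3b to −1.03 for Scn4b. Of the calcium channel alpha1 subunits 7 of 8 were called below, down to −1.75 for Cacna1i, and Cacna1e (−0.20, SE 0.17) was not called. The sodium channel pores divided: Scn8a lay at −1.04 (SE 0.15, edgeR adjusted p = 2.1e-05), whereas Scn2a (0.22, SE 0.21), Scn3a (−0.02) and Scn1a (−0.32, SE 0.28) were not called.

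For Scn2a the total mRNA varied more than the footprints. Neuronal total mRNA stood at 15.8 and 49.8 RPKM in the WT cultures, at 31.0, 15.9 and 36.6 RPKM in the hTDP-43 cultures and at 35.1, 22.5 and 21.2 RPKM in the A315T cultures. Footprints of the same cultures stood at 34.6 and 31.2, at 31.7, 32.8 and 39.2, and at 32.0, 29.2 and 29.3 RPKM. The 2 total mRNA libraries rich in Lars2 reads, WT 3 and hTDP-43 3, held the highest Scn2a values, and without those cultures the Scn2a ratio was 0.58 above the average and was called (edgeR adjusted p = 0.012). Kcnma1 showed the same high pair in total mRNA (40.3 and 48.4 RPKM, against 15.3 to 31.8 in the other 6) and 18.5 to 30.1 RPKM in footprints. The part of Lars2 reads in these values was not tested.

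In MN1 cells the pattern of lower ratios covered the channels best expressed there. Hcn2 lay at −1.33 (SE 0.12, edgeR adjusted p = 7.3e-07), Cacnb3 at −1.52, Kcnk3 at −1.42, Cacng7 at −1.32 and Kcnh2 at −0.92. Kcna2 was lowest, at −3.57 (SE 0.69), with 91 counts in total mRNA and 3 in footprints. Above the average were Scn9a (0.66, SE 0.24, edgeR adjusted p = 0.032) and Cacna1e (2.02, SE 0.53, edgeR adjusted p = 0.0046), the latter on 16 total mRNA and 24 footprint counts. Both calls were lost when single MN1 cultures were left out, Scn9a without GFP 2, hTDP-43 1 or A315T 2, and Cacna1e without GFP 2 or A315T 1.

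A direct test of the ratio between cell types called 5 of 99 channel genes, 3 higher in neurons (5.94% of all genes were) and 2 lower (2.13%; either direction 8.07%). Hcn3 was 1.65-fold higher in neurons (log2 0.72, SE 0.22, edgeR adjusted p = 0.045), Kcnip3 2.58-fold (1.37, SE 0.39) and Kcna2 8.96-fold (3.16, SE 0.91), whereas Kcnq3 was 15.3-fold lower (−3.94, SE 1.07) and Cacna1e 4.38-fold lower (−2.13, SE 0.58). The calls were fragile. Kcnq3 rested on 10 total mRNA and 16 footprint counts in MN1 cells, Cacna1e on 16 and 24, and Kcna2 on 91 and 3. The median over all genes tested was 0.20 with TMM scaling and −0.02 with relative log expression scaling, under which 2 channel genes were called, both lower (Cacna1e and Kcnq3). DESeq2 called 5, all lower. No channel gene was called with GFP and WT cultures only or when culture 2 of any MN1 group was left out. Hcn3 missed with the libraries of each culture paired (edgeR adjusted p = 0.053), where Hcn4 was called instead (log2 0.97, edgeR adjusted p = 0.013).

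The effect of TDP-43 on channel genes was then examined within each cell type. TDP-43 binds UG-rich RNA and many long neuronal transcripts, and channel genes were long, as given above. A run of at least 12 TG repeats lay within 104 of the 138 channel genes (75.4%) and within 50.6% of 21488 protein-coding genes, on the gene strand. Per length the difference was small, at 5.34 and 5.16 runs per 100 kb. Runs of at least 6 repeats were slightly rarer in channel genes, at 10.0 against 10.4 per 100 kb. Exons of 16 channel genes held a run of at least 6 repeats, 21 runs in all, of which 12 lay after the coding span, 1 before it, 8 in untranslated exon parts within it, and 0 in coding sequence. Examples from genes described here are given as 30-base windows around the run, with the run in capitals and its coordinates in GRCm38:
Cacna1e (chr1:154475295-154475318): aaaTGTGTGTGTGTGTGTGTGTGTGTGtct
Kcnmb4 (chr10:116463464-116463485): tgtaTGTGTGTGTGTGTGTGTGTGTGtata
Scn8a (chr15:101045288-101045303): acatgtaTGTGTGTGTGTGTGTGaagaatg
Cacna2d2 (chr9:107521777-107521790): tatatataTGTGTGTGTGTGTGtccgtgta
A run of these letters is a description, not a binding site.

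In the main fits, which left the cultures unpaired, no channel gene passed for either TDP-43 allele, in total mRNA, in footprints or in their ratio. Pairing the cultures by number called Hcn2 for A315T against GFP in MN1 total mRNA, as given below. The human transgenes are not in the tables, and the mouse gene Tardbp, which does not check them, lay at 218 to 413 CPM in MN1 total mRNA and at 60.7 to 115 CPM in neuronal total mRNA. In MN1 total mRNA edgeR called 0 of 37 channel genes for A315T against GFP (0.00965% of all genes were called), with 2 at an unadjusted p under 0.05, and 0 of 35 for hTDP-43 against GFP (0.0100%), with 0 at an unadjusted p under 0.05. For A315T against hTDP-43 it called 0 of 34 (0% of all genes), with 2 under 0.05. The share of all genes at an unadjusted p under 0.05 was 5.29%, 0.673% and 3.52% in these fits, where 5.41%, 0% and 5.88% of the channel genes were. In MN1 footprints the counts were 0 of 22 for A315T against GFP (0.0115% of all genes), 0 of 20 for hTDP-43 against GFP (0%) and 0 of 18 for A315T against hTDP-43 (0%), with none under 0.05, where 2.83%, 1.38% and 2.34% of all genes were. DESeq2 called 0 channel genes in each of these. Comparisons within a cell type share libraries, so they are not independent of each other.

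Hcn2 was the member nearest to a call in MN1 cells. Its total mRNA stood at 42.8 and 51.1 RPKM in the GFP cultures, at 49.0 and 60.7 RPKM with hTDP-43 and at 62.5 and 64.2 RPKM with A315T. A315T differed from GFP by 0.36 on the log2 scale (SE 0.13, edgeR adjusted p = 0.85), in a gene picked for being nearest to a call. With the cultures paired by number, Hcn2 was called for A315T against GFP (log2 0.36, edgeR adjusted p = 0.038), 1 of 37 channel genes, in a fit that called 2.73% of all genes. Kcna2 spread widely, at 0.909 and 0.504 RPKM with hTDP-43 and 2.24 and 3.15 RPKM with A315T (log2 1.75, SE 0.51, edgeR adjusted p = 1.0). Its GFP cultures, at 1.50 and 1.90 RPKM, lay between these.

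In neurons the counts were also 0. The alleles there came from separate transgenic mice, and the study names a Flag tag for the A315T protein only. It also reports a somewhat higher level of the mutant protein than of hTDP-43 in these neurons. Between the transgenic groups, allele, mouse line, tag and protein level thus cannot be told apart. In total mRNA edgeR called 0 of 100 channel genes for A315T against WT (0% of all genes), with 0 at an unadjusted p under 0.05, 0 of 101 for hTDP-43 against WT (0%), with 0 under 0.05, and 0 of 97 for A315T against hTDP-43 (0%), with 1 under 0.05. In footprints it called 0 of 85 for A315T against WT (0%), with 7 under 0.05, 0 of 78 for hTDP-43 against WT (0%), with 9 under 0.05, and 0 of 78 for A315T against hTDP-43 (0%), with 1 under 0.05. Of all genes tested, 3.15% (A315T against WT), 5.16% (hTDP-43 against WT) and 2.59% (between the alleles) had an unadjusted p under 0.05 in footprints, against 8.24%, 11.5% and 1.28% of the channel genes, and in total mRNA 1.64%, 0.372% and 1.06% did. DESeq2 called 0 in all of these. Precision differed between the measures: the median SE of a channel gene for A315T against WT was 0.33 on the log2 scale in total mRNA and 0.25 in footprints, and for A315T against GFP in MN1 cells it was 0.26 and 0.37.

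Among the genes with unadjusted p under 0.05 in neuronal footprints, Kcnt1 and Kcnf1 are given as values. Kcnt1 stood at 3.33 and 2.86 RPKM in WT, at 5.32, 8.72 and 7.93 RPKM with hTDP-43 and at 4.96, 4.83 and 5.09 RPKM with A315T. The log2 differences from WT were 1.00 for hTDP-43 (SE 0.31, edgeR adjusted p = 0.72) and 0.65 for A315T (SE 0.24, edgeR adjusted p = 1.0), which share the WT libraries. Kcnt1 was picked for its low unadjusted p, so the order of its cultures is no further result. Its total mRNA, at 6.04 to 8.12 RPKM, gave 0.18 (SE 0.27) and 0.18 (SE 0.23). Kcnf1 footprints stood at 22.6 and 19.8 RPKM in WT, at 34.2, 27.7 and 21.4 RPKM with hTDP-43 and at 31.3, 39.3 and 28.4 RPKM with A315T, and the hTDP-43 and WT ranges overlapped.

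**Figure D5:**
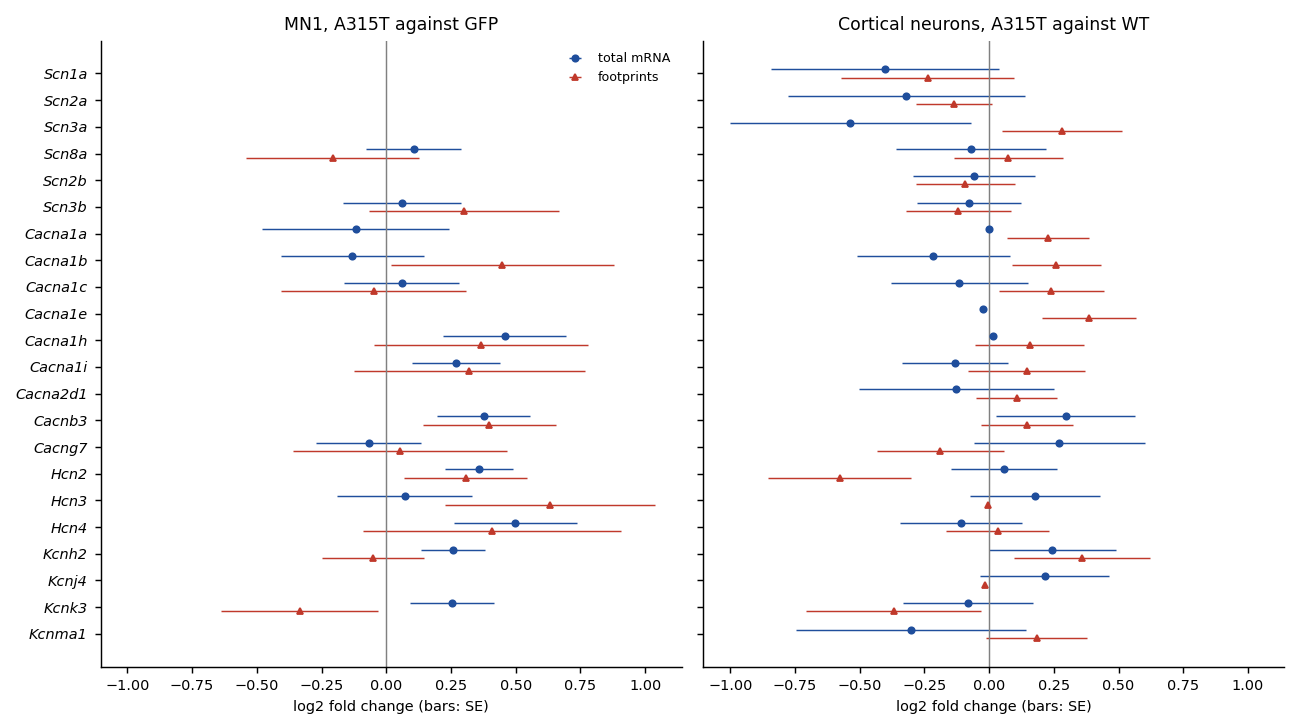
Log2 fold change of A315T against GFP in MN1 cells and against WT in neurons, in total mRNA and in footprints, for 22 channel genes, with bars of 1 SE (not drawn where the unadjusted p exceeded 0.9). Points scatter around 0 in each panel, and none was called in the main fits, which left the cultures unpaired.

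Ratios of footprints to total mRNA gave the same counts: 0 of 35, 33 and 31 channel genes in MN1 cells for A315T against GFP, for one allele against the other and for hTDP-43 against GFP (0% of all genes in each, none at an unadjusted p under 0.05 by edgeR, where 2.18%, 2.30% and 1.22% of all genes were). In neurons 0 of 100, 96 and 94 were called in the matching comparisons with WT as the control (0% in each, 1 channel gene under 0.05 in each, where 1.65%, 1.19% and 0.688% of all genes were). A test of whether the A315T effect differed between neurons and MN1 cells called 0 of 103 channel genes in total mRNA (0%, 5 or 4.85% under 0.05, against 2.48% of all genes) and 0 of 85 in footprints (0%, 2 or 2.35% under 0.05, against 2.42%). DESeq2 called 0 in every one of these fits. Median log2 differences of the channel genes over these 20 genotype fits lay between −0.15 and 0.16.

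Proteins that bind, anchor or regulate these channels were followed as a list of 46 genes. In total mRNA 42 were tested, and 35 were higher in neurons and 6 lower (42.6% and 38.4% of all genes), with a median log2 difference of 4.14 against 0.09. In footprints 33 of 40 were higher and 6 lower (42.7% and 39.9% of all genes), with a median of 4.77 against 0.05. The largest levels gained were those of axonal adhesion and sodium channel partners: Nrcam had 1 count in MN1 total mRNA and 37.6 RPKM in neurons, Cntn1 6 counts and 37.5 RPKM, and the FGF homologous factor gene Fgf12 2 counts and 25.7 RPKM. Of the genes lower in neurons, Stac, which slows inactivation of L-type calcium channels, lay at 29.4 RPKM in MN1 cells and 4.96 RPKM in neurons (log2 −2.66, SE 0.14). The small G proteins Gem (log2 −4.01, SE 0.29) and Rrad (−2.72, SE 0.41), which bind calcium channel beta subunits and inhibit the current, were also lower in neurons, at 0.524 and 0.589 RPKM against 8.81 and 4.22 RPKM. Footprints over total mRNA of this list were above the average for 14 of 40 tested in neurons and below it for 12 (26.6% and 27.3% of all genes), with a median of −0.02 against 0.00, so these shares were near those of all genes.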

How the data were processed

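Footprint and total mRNA libraries of MN1 cells and primary cortical neurons were analysed from the authors' deposited raw read counts per gene. Per the labels and the study's methods, adapters were clipped with cutadapt 1.8.1 (reads without adapter discarded), reads of noncoding RNA were removed with Bowtie2, the rest were aligned to GRCm38 with TopHat2, and uniquely mapped reads were counted over exons with featureCounts 1.4.4 without strand, dropping reads that overlapped several genes. Unstranded counting cannot separate a gene from an antisense neighbour, and whole-exon counts include untranslated parts.

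The counts were tested here with edgeR 4.0.16 in R 4.3.3: TMM scaling, genes filtered at a minimum count of 10 (total 15), the quasi-likelihood test over all genes, and Benjamini-Hochberg adjustment, called at an adjusted p below 0.05. edgeR stands in for the DESeq package of the study. The SE of a log2 fold change was taken as its size over the square root of F, and is left out where p exceeded 0.9. Levels are CPM on TMM-scaled library sizes, divided by exon length for RPKM, and ratios of pooled counts carry exact 95% intervals that cover counting error only. A total of 3 counts corresponds to 1.00 to 2.26 CPM in MN1 total, 2.46 to 9.03 CPM in MN1 footprint, 0.430 to 5.00 CPM in neuronal total and 1.19 to 18.1 CPM in neuronal footprint libraries. The tests were tested on simulated data first.

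Alternatives were relative log expression scaling, no filter, DESeq2 1.42.0, a replicate block, control groups only, each culture left out and, added after the data were seen, leaving out the cultures WT 3 and hTDP-43 3. Replicate numbers share a date in the sample titles within a cell type, except for 1 GFP footprint library, and were taken as pairs. For ratios of footprints to total mRNA the block was instead the culture, which paired its footprint with its total mRNA library. The main fits used no block. Deviations of same-numbered libraries from their group means correlated at a mean r of 0.34 (MN1 footprints), 0.46 (MN1 total), 0.12 (neuron footprints) and 0.19 (neuron total). Named genes were the leading genes of each class and comparison by a rule that gave 70 genes, 64 of them members, and others are marked where named. The members and lists were chosen with earlier results of these data known. Sequences come from the RefSeq GRCm38.p6 genome, and shared windows from GENCODE M21 transcripts. Values of some members are not reported here.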

Additional observations from a re-analysis of the deposited data

Results flagged for a closer look

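The ratio of footprints to total mRNA differed between neurons and MN1 cells by the test of the difference itself in 5 channel genes. The log2 difference, neurons minus MN1 cells, was −3.94 for Kcnq3 (SE 1.07, edgeR adjusted p = 0.0221), −2.13 for Cacna1e (SE 0.58, edgeR adjusted p = 0.0226), 0.72 for Hcn3 (SE 0.22, edgeR adjusted p = 0.0448), 1.37 for Kcnip3 (SE 0.39, edgeR adjusted p = 0.0311) and 3.16 for Kcna2 (SE 0.91, edgeR adjusted p = 0.0327). Kcnq3, Cacna1e and Kcna2 had 16, 24 and 3 footprint counts in all MN1 libraries. Kcnq3 and Cacna1e kept a lower ratio in neurons and their call under relative log expression scaling, no filter, DESeq2 and the culture block. All 5 lost the call with control groups only (edgeR adjusted p from 0.82 to 0.98).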

How the results depend on the processing

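Of 275 results for named genes, 4592 of 4729 alternative fits kept direction and call, 111 lost the call, 26 gained it and 0 reversed. Channel genes called in neurons against MN1 cells numbered 96 to 100 in total mRNA and 79 to 87 in footprints when single cultures were left out, and those called for footprints against total mRNA 21 to 25 (MN1 cells) and 49 to 63 (neurons). The ratio between cell types was the least stable: 2 channel genes were called with relative log expression scaling, 0 with control groups only (0 of 11706 genes), and 0 to 6 with single cultures left out. With the replicate block 1 channel gene (Hcn2) was called for A315T against GFP in MN1 total mRNA, and the block moved no other count of channel genes by over 1.5 times. Leaving out single cultures gave 0 to 1 calls for A315T against hTDP-43 in MN1 total mRNA (Cacna1h, without hTDP-43 culture 2) and 0 to 13 for A315T against WT in neuronal total mRNA. The 13 came without WT culture 2, which left WT culture 3, rich in Lars2 reads, as the lone control, assumed to vary like the other groups, and 1573 of 12558 genes were then called. Without the low-count filter 1 channel gene (Kcnk1) was called for the difference of the A315T effect between cell types in total mRNA. Depth sets a floor: in the shallowest neuronal footprint library 3 counts are 18.1 CPM, and in MN1 footprints only 18 to 22 channel genes could be tested between genotypes.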
